A study of Mus musculus with 57 samples.

Results

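The passage from midday to evening in light was followed in visual cortex, by setting 4 libraries collected at ZT11.5 against 4 collected at ZT7.5, all from wild-type mice. Zeitgeber time (ZT) counts hours from the usual lights-on, and ZT11.5 falls shortly before lights-off. These 8 libraries, taken by their labelled condition and time, are 8 of the 57 in the series. All mice were kept in a cycle with 12 h of light. Light animals had their usual light on the day of collection, whereas for dark animals the lights stayed off on that day alone. The dark arm supplied the same interval without light, with 4 libraries at ZT11.5 and 4 at ZT7.5. The labels call the samples biological replicates. Neither their animals of origin nor age, sex and strain are stated in those sources. The p-values therefore refer to the spread among libraries, part of which may be technical. Unless stated otherwise, that spread was estimated from all 57 libraries in 15 groups. RNA was profiled by MARS-Seq, a method that counts transcripts by tags read near their 3′ ends. Values are normalised read counts, that is, counts scaled by one size factor for each library.

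The visual cortex receives light-driven input through the thalamus. Firing of its neurons and the calcium entry that follows switch on immediate-early genes within minutes. Their products are mostly transcription factors such as Fos and the Egr proteins, which in turn act on genes for synaptic, secreted and signalling proteins. Cells of the cortex also carry a circadian clock, in which CLOCK or NPAS2 pairs with BMAL1 (encoded by Arntl) on E-box sequences to drive the Per, Cry, Nr1d and Ciart repressors and output genes such as Dbp. In nocturnal rodents, corticosterone rises towards lights-off and acts through the glucocorticoid receptor on genes such as Sgk1, Tsc22d3 and Fkbp5.

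The light libraries held 2.94 to 3.35 M recovered reads (M, mega) at ZT11.5 and 1.78 to 2.61 M at ZT7.5, so depth and time moved together. With all libraries thinned to an equal 1.64 M reads, light log2 differences (given further on at full depth) were 0.74 for Egr4, 0.53 for Per2, 0.94 for Tmem183a, -0.74 for Klf5 and -0.39 for Gpr162. Within both light groups, replicates 3 and 4 differed from replicates 1 and 2. Xist, made from the inactive X chromosome, read 0, 0, 47.3 and 38.8 in replicates 1 to 4 at ZT11.5, against 3.40, 1.52, 41.6 and 38.4 at ZT7.5. Both light groups thus held the same mix, and differences within each of these pairs of replicates are given beside the pooled ones for the main genes. Of 16 markers of excitatory neurons, 15 were above the filter on low values, with a median log2 difference of 0.037 between ZT11.5 and ZT7.5. Choroid plexus markers differed much more between libraries, as described at the end.

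No gene passed the test between ZT11.5 and ZT7.5 in light. Of 10526 genes tested with limma, 0 (0%) had an adjusted p under 0.05, and 912 (8.66%) had an unadjusted p under 0.05, of which 425 (4.04%) were higher and 487 (4.63%) lower at ZT11.5. edgeR also gave 0 genes, with 910 at an unadjusted p under 0.05. DESeq2 gave 2, Ina and Gpr162, both lower at ZT11.5. The smallest adjusted p was 0.0735, and 28 genes (0.266%) differed by more than 1 on the log2 scale. The median standard error of a log2 difference was 0.16. In 237 genes (2.25%) all 4 ZT11.5 libraries lay above all 4 ZT7.5 libraries, and in 332 (3.15%) all lay below. Over the same hours without light, 30 genes passed (0.285%), 10 higher (0.095%) and 20 lower (0.19%) at ZT11.5. At an unadjusted p under 0.05, 1044 (9.92%) differed in dark, 463 (4.4%) higher and 581 (5.52%) lower, and all 4 libraries were higher in 379 genes (3.6%) and lower in 426 (4.05%). The log2 differences had opposite signs in light and dark in 4476 genes (42.5%). A test of whether the light and the dark change differed was passed by 1 gene, Egr1 (0.0095% of those tested), and 703 (6.68%) had an unadjusted p under 0.05, 337 (3.2%) with a higher and 366 (3.48%) with a lower change in light. That more genes passed in dark than in light is not a test of a difference between the arms.

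Immediate-early genes stood mostly higher at ZT11.5 in light. Of 20 tested members, 16 had a positive log2 difference, and the median was 0.30, against -0.0027 over all genes tested. None passed over all genes. At an unadjusted p under 0.05, 7 of the 20 (35%) were higher and 0 lower, where 4.04% of all genes were higher. In dark the median was -0.17, with 14 of the 20 negative and 5 lower at an unadjusted p under 0.05 (5.52% of all genes). For the difference between the light and dark changes, 7 of the 20 were higher at that threshold (3.2% of all genes) and 0 lower, and the median was 0.61. The list's mean level, the average log2(value + 1) of its members, was 6.46, 6.09, 6.87 and 6.78 in the 4 light ZT11.5 libraries, against 5.83, 5.87, 6.43 and 6.50 in the 4 light ZT7.5 libraries. Within replicates 1 and 2, and again within replicates 3 and 4, both ZT11.5 libraries were above both ZT7.5 libraries, while replicates 3 and 4 of ZT7.5 lay above replicate 2 of ZT11.5.

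Egr4, an activity-induced zinc finger factor (chr6:85511121-85513589, minus strand, GRCm38, protein-coding), had the smallest p among them. It read 293, 281, 409 and 355 at light ZT11.5, against 183, 138, 255 and 232 at light ZT7.5. The groups did not overlap. Means were 334 ± 59.1 at ZT11.5 and 202 ± 52.0 at ZT7.5 (SD, n = 4 each), a log2 difference of 0.75 (SE 0.17) that missed the threshold in limma (adjusted p = 0.118). The difference was 0.85 in replicates 1 and 2 and 0.65 in replicates 3 and 4. With a term in the limma fit for replicates 3 and 4 against 1 and 2, Egr4 passed with an adjusted p of 0.0427. Without light its values overlapped, at 157, 158, 130.3 and 181 at dark ZT11.5 and 192, 141, 177 and 209 at dark ZT7.5. The dark log2 difference of Egr4 was -0.19, and the difference between its light and dark changes did not pass.

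Egr1, a widely used marker of neuronal activity (chr18:34859823-34864984, plus strand, GRCm38, protein-coding), differed in opposite directions in the arms. It read 1286, 944, 1365 and 1199 at light ZT11.5, against 684, 548, 1083 and 985 at light ZT7.5. Replicate 2 of ZT11.5 lay below both higher ZT7.5 libraries, so the light groups overlapped, and the log2 difference of 0.58 (SE 0.17) did not pass (limma adjusted p = 0.219). Without light it fell to 383, 359, 294 and 439 at dark ZT11.5, against 575, 564, 559 and 701 at dark ZT7.5, with no overlap (log2 difference -0.71, limma adjusted p = 0.0362). The light change exceeded the dark change by 1.29 on the log2 scale (SE 0.23, limma adjusted p = 0.0118). Values within replicates 1 and 2 gave a difference between the changes of 1.46 (limma adjusted p = 0.0184), and those within replicates 3 and 4 gave 1.11 (0.162). Leaving out any 1 of 6 libraries ended that call, with limma adjusted p of 0.0532 without replicate 1 and 0.0713 without replicate 3 of light ZT11.5, 0.0745 without replicate 1 and 0.127 without replicate 2 of light ZT7.5, 0.0969 without replicate 3 of dark ZT11.5, and 0.0789 without replicate 4 of dark ZT7.5. The difference itself stayed between 1.11 and 1.43 when single libraries were left out, and was also not called with no filter on low values (0.0589), in a fit to the compared groups alone (0.0872) or without libraries under 2 M reads (0.106). The dark fall alone was called in the full set and without replicate 4 of dark ZT11.5 (0.0364), and not when any of the other 7 dark libraries was left out (limma adjusted p from 0.0551 without replicate 1 to 0.321 without replicate 3 of dark ZT11.5), and edgeR gave it an adjusted p of 0.0539.

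Fos, which with Jun proteins forms the AP-1 factor (chr12:85473890-85477273, plus strand, GRCm38, protein-coding), read 77.6, 58.9, 165 and 171 at light ZT11.5, against 29.5, 34.9, 87.1 and 81.0 at light ZT7.5. Replicates 3 and 4 were higher than 1 and 2 in both groups, which put replicates 1 and 2 of ZT11.5 below replicates 3 and 4 of ZT7.5. The log2 difference was nevertheless close in both pairs, 1.05 in replicates 1 and 2 and 0.99 in replicates 3 and 4, and the pooled difference was 1.02 (SE 0.34, limma adjusted p = 0.335). Dark libraries held 13.5, 17.8, 13.1 and 20.7 at ZT11.5, against 30.1, 26.0, 33.9 and 30.6 at ZT7.5. All dark ZT11.5 libraries were lower, but the log2 difference of -0.87 did not pass (limma adjusted p = 0.339), nor did the difference between the arms of 1.89 (0.42).

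Egr2, which encodes another Egr zinc finger factor, was a low-count member that read 27.7, 23.2, 36.4 and 29.5 at light ZT11.5, against 6.81, 6.07, 14.3 and 21.8 at light ZT7.5. All 4 ZT11.5 libraries were higher, and Egr2 and Egr4 were the 2 of 20 members (10%) without overlap, against 2.25% of all genes with all 4 libraries higher. The log2 difference was 1.34 (SE 0.54, limma adjusted p = 0.498), while dark levels were at most 2.97 at ZT11.5 and 6.28 at ZT7.5. Nr4a1, an orphan nuclear receptor, read 373, 339, 806 and 589 at light ZT11.5 and 256, 238, 397 and 495 at light ZT7.5 (log2 difference 0.58, limma adjusted p = 0.374). Junb, another AP-1 component, read 621, 468, 1101 and 1065 at light ZT11.5 and 314, 349, 639.8 and 784 at light ZT7.5 (0.66, 0.393). In these 2 genes replicates 3 and 4 were again the higher ones in both groups, and the groups overlapped. Arc, whose product acts at the synapse on AMPA receptor trafficking, had the widest spread, 459.9, 226, 1068 and 1287 at light ZT11.5 and 188, 248, 603 and 623 at light ZT7.5 (0.75, 0.532). Its replicate 2 at ZT11.5 was lower than its replicate 2 at ZT7.5.

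Of the other members, Btg2, an antiproliferative factor, read 36.4, 26.8, 40.0 and 44.7 at light ZT11.5 and 27.2, 19.7, 32.5 and 32.2 at light ZT7.5 (log2 difference 0.40, limma adjusted p = 0.698), with 0.41 in replicates 1 and 2 and 0.38 in replicates 3 and 4. Cyr61, a secreted matrix-associated protein gene, differed by 0.65 (0.631), 0.97 in replicates 1 and 2 and 0.33 in replicates 3 and 4. Npas4 and Egr3 had a sign that depended on the libraries kept. Npas4, a neuron-restricted factor induced by calcium, read 95.0, 34.8, 54.6 and 54.0 at light ZT11.5 and 29.5, 24.3, 75.4 and 98.7 at light ZT7.5. The log2 difference was 1.08 in replicates 1 and 2 and -0.66 in replicates 3 and 4, opposite in sign, and 0.21 over all (limma adjusted p = 0.914), which turned to -0.11 without replicate 2 of light ZT7.5. Egr3 read 206 to 228 at light ZT11.5 and 170.2 to 251 at light ZT7.5, with a log2 difference of -0.022 (SE 0.12) whose sign also depended on the libraries kept, 0.0475 without replicate 2 of ZT7.5. Among 26 tested effector genes downstream of activity, 1 was higher and 3 lower at an unadjusted p under 0.05, against 4.04% and 4.63% of all genes. Their light log2 differences were positive in 16 and negative in 10, with a median of 0.052. The light change lay above the dark change in 18 of the 26 and below it in 8. Inhba and Scg2, given next, were among the 10 negative members. Inhba, a subunit of activin, read 42.0, 38.4, 21.8 and 39.7 at light ZT11.5 and 39.7, 57.7, 49.4 and 71.7 at light ZT7.5 (log2 difference -0.62, limma adjusted p = 0.429). Scg2, a secretogranin of dense-core vesicles, read 761, 757, 729 and 777 at light ZT11.5 and 881, 843, 931 and 775 at light ZT7.5 (-0.18, 0.543).

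**Figure D1:**
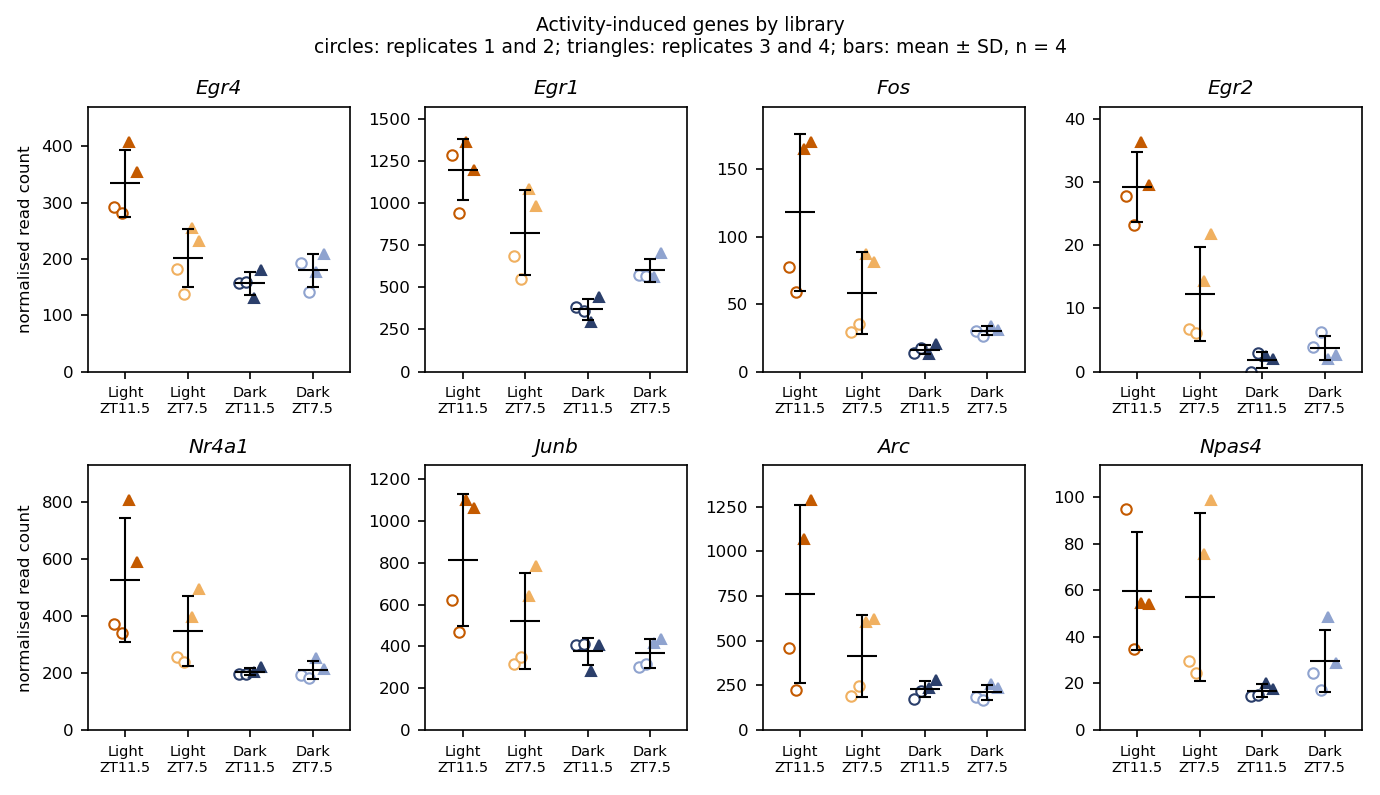
Normalised read counts (y axis, linear, from 0) of 8 immediate-early genes in each library of Light ZT11.5, Light ZT7.5, Dark ZT11.5 and Dark ZT7.5, with bars for mean ± SD (n = 4). Circles are replicates 1 and 2 and triangles replicates 3 and 4. Egr4 and Egr2 do not overlap between the light groups, Fos, Junb, Nr4a1 and Arc are higher in triangles than in circles at both light times, and Egr1 is lowest at Dark ZT11.5 (294 to 439).

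The promoters of 4 of these genes, which differed in the same direction in light, are shown as the 250 bases before the RefSeq start in GRCm38, with each TGACG in capitals, or CGTCA where it lies on the other strand. TGACG is the core of the cAMP response element, to which CREB binds downstream of calcium and cAMP.
Egr4 (chr6:85513590-85513839, minus strand): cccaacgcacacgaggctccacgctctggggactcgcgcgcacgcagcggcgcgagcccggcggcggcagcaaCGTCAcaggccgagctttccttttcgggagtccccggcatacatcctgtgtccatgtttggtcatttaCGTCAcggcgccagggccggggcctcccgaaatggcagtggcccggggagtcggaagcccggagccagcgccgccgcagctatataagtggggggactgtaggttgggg
Fos (chr12:85473640-85473889, plus strand): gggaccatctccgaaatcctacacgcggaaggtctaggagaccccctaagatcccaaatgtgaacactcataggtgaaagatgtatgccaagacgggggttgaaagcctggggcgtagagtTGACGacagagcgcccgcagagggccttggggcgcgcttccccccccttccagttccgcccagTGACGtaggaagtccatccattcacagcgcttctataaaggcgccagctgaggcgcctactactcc
Nr4a1 (chr15:101266596-101266845, plus strand): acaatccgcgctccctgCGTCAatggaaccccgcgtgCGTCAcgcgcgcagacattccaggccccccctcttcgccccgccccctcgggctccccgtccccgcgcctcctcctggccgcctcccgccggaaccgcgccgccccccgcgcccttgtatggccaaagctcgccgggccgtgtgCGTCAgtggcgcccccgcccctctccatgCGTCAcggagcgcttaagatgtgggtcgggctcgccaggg
Junb (chr8:84978749-84978998, minus strand): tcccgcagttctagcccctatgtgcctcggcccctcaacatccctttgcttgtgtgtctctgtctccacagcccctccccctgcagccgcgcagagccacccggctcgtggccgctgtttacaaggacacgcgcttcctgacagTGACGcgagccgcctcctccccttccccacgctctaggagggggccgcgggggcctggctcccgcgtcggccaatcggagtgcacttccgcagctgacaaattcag
Counted back from the start, the matches begin at 177 and 109 bases in Egr4, at 129 and 66 in Fos, at 233, 213, 69 and 40 in Nr4a1, and at 106 in Junb. Shares of promoters with a match refer to these 250 bases before the start, searched on both strands. TGACG occurred in 12 of the 15 immediate-early genes with a listed promoter (80%). It occurred in 31.4% of the 8078 tested genes with one and in 19.8% of all 27025 listed promoters. The full element TGACGTCA occurred in 2 of the 15 (13.3%), Dusp1 and Btg2, against 3.1% of tested genes. The CArG box (CC, 6 of A or T, GG) occurred in 1 of the 15 (6.67%), Egr2, against 1.4% of tested genes. In other lists, TGACG occurred in 10 of 18 heat shock genes (55.6%), 3 of 7 clock repressors (42.9%) and 3 of 8 clock output genes (37.5%) with a listed promoter. A match describes the sequence and shows no binding.

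Clock repressors also stood higher at ZT11.5 in light, and in dark too. Of 9 tested members, 7 had a positive log2 difference in each arm, with a median of 0.30 in light and 0.22 in dark. None passed in either arm. At an unadjusted p under 0.05, 2 (22.2%) were higher and 0 lower in light, against 4.04% and 4.63% of all genes, and 2 were higher and 1 lower in dark, against 4.4% and 5.52%. Mean list levels were 6.85, 6.76, 7.08 and 6.69 at light ZT11.5, against 6.62, 6.51, 6.62 and 6.60 at light ZT7.5, without overlap. Per2, a core repressor (chr1:91415982-91459324, minus strand, GRCm38, protein-coding), read 71.2, 54.5, 67.4 and 45.6 at light ZT11.5, against 40.8, 25.8, 31.2 and 47.8 at light ZT7.5. Replicate 4 of ZT11.5 lay just below replicate 4 of ZT7.5, and the log2 difference was 0.71 (SE 0.17, limma adjusted p = 0.12), 0.92 in replicates 1 and 2 and 0.51 in replicates 3 and 4. Its dark difference was 0.22 (limma adjusted p = 0.732). The difference between the arms of 0.50 did not pass (0.733).

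Ciart, a repressor that acts on the CLOCK and BMAL1 pair (chr3:95878503-95882251, minus strand, GRCm38, protein-coding), was the 1 member of the repressor list (11.1%, against 2.25% of all genes) with all 4 libraries higher in light, and none had all 4 lower. It read 43.5, 49.1, 53.7 and 54.0 at light ZT11.5, against 38.6, 25.8, 33.8 and 36.4 at light ZT7.5, a log2 difference of 0.57 (SE 0.27, limma adjusted p = 0.568). In dark it read 65.4, 61.3, 51.4 and 56.3 at ZT11.5 and 34.0, 19.7, 34.9 and 56.0 at ZT7.5 (0.77, 0.273). Per1, a repressor that also responds to light and hormones, read 225, 166, 279 and 246 at light ZT11.5 and 186, 155, 189 and 196 at light ZT7.5 (0.32, limma adjusted p = 0.616), and its dark difference was 0.29 (0.616). Nr1d1, which encodes the repressor REV-ERBα, ran the other way, with 465 to 562 at light ZT11.5 and 477 to 634 at light ZT7.5 (-0.13), and a dark difference of -0.39. In none of these repressors did the difference between the arms pass.

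The Ciart promoter is shown because 3 E-boxes, CACGTG in capitals, lie within its 250 bases before the RefSeq start in GRCm38.
Ciart (chr3:95882229-95882478, minus strand): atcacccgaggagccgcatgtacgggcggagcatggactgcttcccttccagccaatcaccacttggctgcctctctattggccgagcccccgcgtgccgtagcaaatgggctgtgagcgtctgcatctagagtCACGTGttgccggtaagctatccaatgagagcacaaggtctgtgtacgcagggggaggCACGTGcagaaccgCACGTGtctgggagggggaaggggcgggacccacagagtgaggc
They begin 116, 58 and 44 bases before the start. Within the 250 bases before the start, an E-box occurred in 3 of the 7 repressor genes with a listed promoter (42.9%, Per1, Cry1 and Ciart). The share was 10.5% of tested genes and 6.86% of all listed promoters. The D-box (TTATGTAA or TTACGTAA), bound by DBP and its relatives, occurred in 1 of the 7 (14.3%), Per3. It occurred in 0.768% of tested genes and 1.09% of all listed promoters.

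The 3 tested activators of the clock all had negative log2 differences, and 1 of them was lower at an unadjusted p under 0.05 (33.3%, against 4.63% of all genes). Npas2 read 38.0, 57.1, 51.9 and 55.7 at light ZT11.5, against 80.5, 72.9, 53.3 and 72.7 at light ZT7.5 (log2 difference -0.46, SE 0.17, limma adjusted p = 0.436), and 0.056 in dark. Arntl, the gene of BMAL1, differed by -0.082 (SE 0.17), with ranges of 75.0 to 100.1 at light ZT11.5 and 79.3 to 100.2 at light ZT7.5, and by 0.094 within replicates 3 and 4. Of 9 output genes, 3 (33.3%) were higher and 1 (11.1%) lower at an unadjusted p under 0.05, against 4.04% and 4.63% of all genes, with a median of 0.044. Dbp, an output transcription factor, read 877, 986, 897 and 956 at light ZT11.5 and 689, 563, 929.7 and 995 at light ZT7.5. Replicates 1 and 2 of ZT7.5 were low, and the log2 difference of 0.26 was 0.58 in replicates 1 and 2 and -0.055 in replicates 3 and 4.

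The kinase gene Wee1, which restrains entry into mitosis, read 34.8, 30.4, 38.2 and 36.3 at light ZT11.5 and 31.8, 25.8, 16.9 and 26.0 at light ZT7.5 (log2 difference 0.49, limma adjusted p = 0.393). Coq10b, which encodes a coenzyme Q binding protein, was higher in all 4 libraries, 57.0, 58.9, 72.8 and 59.9 at light ZT11.5 and 44.2, 44.0, 42.9 and 48.8 at light ZT7.5 (0.45, 0.454). The deubiquitinase gene Usp2 was lower in all 4, 364, 353, 330.4 and 355 at light ZT11.5 and 373, 446, 432 and 426 at light ZT7.5 (-0.26, 0.492). Its dark difference was 0.10.

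Set in the whole light course, the interval from ZT7.5 to ZT11.5 leads out of a low point for several of these genes. Per2 averaged 72.0 ± 12.2 at ZT3, 36.4 ± 9.80 at ZT7.5, 59.7 ± 11.8 at ZT11.5 and 66.7 ± 10.6 at ZT13 in light (SD, n = 4 each). Per1 averaged 389 ± 90.6 at ZT1, 181 ± 18.2 at ZT7.5, 229 ± 47.7 at ZT11.5 and 287 ± 58.6 at ZT13. Dbp was highest at ZT11.5 in light, with 929 ± 50.3, after 794 ± 203 at ZT7.5 and before 803 ± 91.9 at ZT13, neighbours whose SDs overlapped. The Egr1 mean was 2405 ± 97.2 at ZT1, 1752 ± 290.2 at ZT3, 825 ± 251 at ZT7.5, 1198 ± 183 at ZT11.5 and 944 ± 199 at ZT13. The ZT11.5 mean of Egr1 was below those at ZT1 and ZT3. It was above those at ZT7.5 and ZT13, but its SD overlapped theirs. For Fos the ZT11.5 mean of 118 ± 57.9 compared with 389 ± 76.0 at ZT1, 58.1 ± 30.1 at ZT7.5 and 86.7 ± 26.7 at ZT13. These course values are a description without a test.

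**Figure D2:**
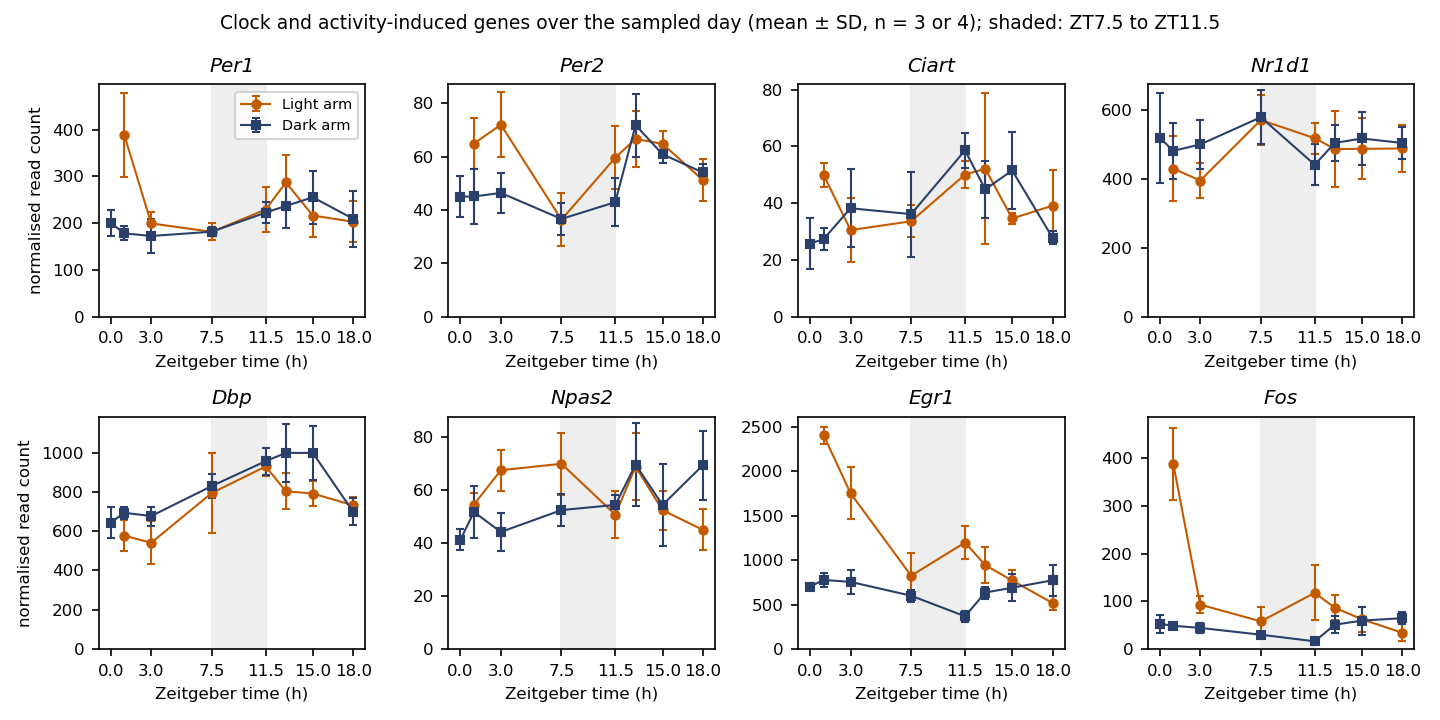
Mean normalised read count ± SD (y axis, linear, from 0) against Zeitgeber time (h) for 6 clock genes and 2 immediate-early genes in the light arm (circles) and the dark arm (squares), n = 3 or 4 libraries a point. The band marks the interval from ZT7.5 to ZT11.5, over which the means of Egr1 and Fos are higher at the later time in light and lower in dark, a difference between the arms that passed for Egr1 and not for Fos. The means of Per1 and Ciart are higher at the later time in both arms.

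The 20 genes with the smallest p in light, 10 in each direction, are of mixed function. Tmem183a, which encodes a transmembrane protein (chr1:134346097-134361979, minus strand, GRCm38), read 53.0, 60.7, 55.5 and 39.7 at light ZT11.5, against 27.2, 24.3, 28.6 and 20.8 at light ZT7.5. All ZT11.5 libraries were higher, with a log2 difference of 1.01 (SE 0.21, limma adjusted p = 0.0735). In dark the difference was 0.44 (0.477). Klf5, a Krüppel-like transcription factor (chr14:99298691-99315036, plus strand, GRCm38, protein-coding), read 94.2, 97.3, 71.9 and 79.4 at light ZT11.5, against 171, 112, 137 and 164 at light ZT7.5. Every ZT11.5 library was lower, with a log2 difference of -0.75 (SE 0.16, limma adjusted p = 0.0735), -0.53 in replicates 1 and 2 and -0.98 in replicates 3 and 4. In dark Klf5 differed in the same direction, by -0.48 (0.216).

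Ina, which encodes the neuronal intermediate filament protein α-internexin, read 259.6, 294, 263 and 252 at light ZT11.5, against 394, 299, 521 and 406 at light ZT7.5 (log2 difference -0.57, SE 0.13, limma adjusted p = 0.118). Replicate 2 of light ZT7.5, the library with the fewest reads, was close to the ZT11.5 range, and without it Ina and Klf5 both passed (limma adjusted p = 0.0147 each, log2 differences of -0.71 and -0.87). Gpr162, an orphan G protein-coupled receptor, read 846, 930.3, 981 and 1012 at light ZT11.5, against 1409, 1166, 1257 and 1217 at light ZT7.5, a log2 difference of -0.42 (SE 0.10, limma adjusted p = 0.118). The difference was -0.53 in replicates 1 and 2 (0.0283) and -0.31 in replicates 3 and 4 (0.279). With that same term for replicates 3 and 4 against 1 and 2, Tmem183a, Klf5 and Gpr162 joined Egr4 in passing at an adjusted p of 0.0427 in limma.

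Among the other genes with higher values were Chordc1, which encodes a partner of HSP90, at 46.7, 35.7, 41.9 and 37.1 at light ZT11.5 and 22.7, 24.3, 23.4 and 22.9 at light ZT7.5 (log2 difference 0.76), and Sox17, an endothelial transcription factor, at 32.5, 35.7, 36.4 and 37.1 at light ZT11.5 and 26.1, 22.8, 14.3 and 16.6 at light ZT7.5 (0.83). Ppfibp2, of the liprin family of scaffold proteins, differed by 1.03. Myadm, a myeloid-associated membrane protein gene, differed by 0.68. Degs2, an enzyme of sphingolipid synthesis, differed by 1.23 on values of 13.7 to 17.4 at light ZT11.5 and 2.27 to 9.35 at light ZT7.5, which are few reads. Lonrf1, a ring finger protein gene, differed by 0.89, and Gcsh, of the mitochondrial glycine cleavage system, by 0.40. The light ranges of these 7 genes did not overlap, their limma adjusted p ran from 0.118 for Sox17 to 0.145 for Gcsh, and their dark log2 differences lay between -0.14 and 0.075.

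On the lower side, Grip2, a scaffold of AMPA receptors, read 28.5, 44.6, 37.3 and 36.3 at light ZT11.5 and 66.9, 53.1, 57.2 and 50.9 at light ZT7.5 (log2 difference -0.63). Kcnj9, a subunit of G protein-gated inward rectifier potassium channels, read 53.8, 47.3, 46.4 and 32.9 at light ZT11.5 and 63.5, 62.3, 78.0 and 66.5 at light ZT7.5 (-0.59). Both act on signalling at the synapse. Map3k3, a MAP kinase kinase kinase, read 15.0, 16.1, 16.4 and 14.4 at light ZT11.5 and 23.8, 36.4, 27.3 and 33.2 at light ZT7.5 (-0.91). Taok2, another kinase of MAP kinase pathways, differed by -0.44, and Arfgef3, of the family of ARF exchange factors, by -0.43. Morc2a, a chromatin ATPase, differed by -1.06 on 5.54 to 14.4 at light ZT11.5 and 19.5 to 30.4 at light ZT7.5. Pou2f2, a POU-domain factor, differed by -1.30, with 1 high ZT7.5 library (replicate 4, 67.5). Pou2f2 and Taok2 overlapped between the light groups, and the other 5 did not. Their limma adjusted p ran from 0.118 for Grip2 to 0.17 for Taok2. For Taok2 the dark difference was 0.16, and for the other 6 it had the sign of the light one.

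**Figure D3:**
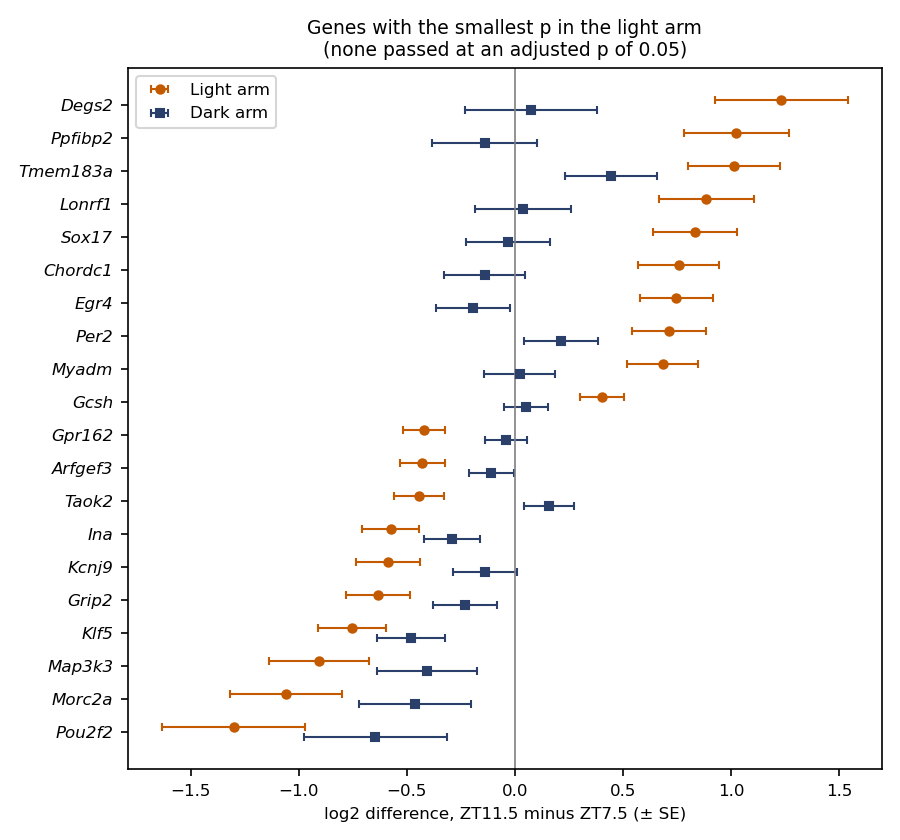
Log2 difference of ZT11.5 minus ZT7.5 (x axis, ± SE from limma) for the 10 higher and the 10 lower genes with the smallest p in light, with the light arm as circles and the dark arm as squares, n = 4 libraries a group. None of the light differences passed. The genes were chosen for their small p in light, which by itself favours larger light than dark differences, as for Gpr162 (-0.42 in light and -0.0399 in dark), so the arms cannot be compared from this plot.

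Of 19 tested glucocorticoid-responsive genes, 4 were called higher in the dark interval, where 0.095% of all genes were. In light 0 of the 19 were called, as were 0% of all genes. At an unadjusted p under 0.05, 4 (21.1%) were higher and 0 lower in light, against 4.04% and 4.63% of all genes. In dark 10 were higher and 2 lower at that threshold, against 4.4% and 5.52%. Medians were 0.12 in light and 0.47 in dark. Sgk1, a kinase induced by corticosteroids (chr10:21882184-21999903, plus strand, GRCm38), read 231, 240.2, 268 and 387 at light ZT11.5 and 118, 193, 293 and 275 at light ZT7.5, which overlapped (log2 difference 0.41, SE 0.24, limma adjusted p = 0.636). In dark it rose to 429.7, 422, 527 and 612 at ZT11.5, against 254, 193, 189 and 185 at ZT7.5 (1.27, 0.0076). The difference between the light and dark changes was -0.86 (SE 0.34) and did not pass (0.627).

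Ddit4, an inhibitor of mTORC1 signalling, read 181, 173, 238 and 167 at light ZT11.5 and 152, 179, 114 and 97.6 at light ZT7.5. Its light log2 difference of 0.51 (limma adjusted p = 0.485) was 0.10 in replicates 1 and 2 and 0.91 in replicates 3 and 4, while in dark it rose by 1.04 (0.0076). Tsc22d3, which encodes the glucocorticoid-induced leucine zipper, differed by 0.29 in light (0.589) and rose by 0.77 in dark (0.0076). Plin4, a lipid droplet protein gene, differed by 0.96 in light (0.597) and rose by 2.45 in dark (0.0129), on values of 11.9 to 26.7 at dark ZT11.5 and 1.94 to 3.50 at dark ZT7.5. For none of the 4 did the test of a difference between the arms pass (limma adjusted p from 0.627 for Sgk1 to 0.787 for Ddit4). The estimated light change minus dark change was -0.86 for Sgk1, -0.54 for Ddit4, -0.48 for Tsc22d3 and -1.49 for Plin4. Without replicate 3 of dark ZT11.5 none of the 4 passed, at log2 differences of 1.24 for Sgk1 and 0.97 for Ddit4 (limma adjusted p = 0.0933 each), and 0.68 for Tsc22d3 and 2.34 for Plin4 (0.0961 each). Sgk1 passed when any of the other 7 dark libraries was left out, with log2 differences of 1.16 to 1.37. Without replicate 1 of dark ZT7.5 the limma adjusted p was 0.0623 for Tsc22d3 (0.76) and Ddit4 (1.02) and 0.081 for Plin4 (2.33), and without replicate 3 of dark ZT7.5 it was 0.0691 for Ddit4 (0.91) and 0.051 for Plin4 (2.49), with log2 differences in brackets.

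Fkbp5, a co-chaperone of the glucocorticoid receptor, was the 1 member (5.26%, against 2.25% of all genes) higher in all 4 light libraries, 199, 205, 187 and 198 at light ZT11.5 against 112, 181, 161 and 166 at light ZT7.5. Replicate 1 of ZT7.5 was the lowest, and the log2 difference of 0.37 did not pass (limma adjusted p = 0.526). Slc2a1, the glucose transporter of the blood-brain barrier, read 443, 528, 558 and 488 at light ZT11.5 and 427, 535, 352 and 303 at light ZT7.5 (0.35, 0.543), and differed by 0.61 in dark (0.054). Cldn5, a tight junction protein of endothelial cells, read 191, 212, 191 and 185 at light ZT11.5 and 346, 322, 189.8 and 250.3 at light ZT7.5. Its light difference of -0.47 (0.271) was -0.73 in replicates 1 and 2 and -0.21 in replicates 3 and 4. In dark Cldn5 fell to 146, 165, 180.4 and 166 at ZT11.5, against 281, 299.5, 273 and 244 at ZT7.5 (-0.74, limma adjusted p = 0.0107), a call lost without replicate 3 of dark ZT11.5 (log2 difference -0.78, limma adjusted p = 0.0933), replicate 1 of dark ZT7.5 (-0.72, 0.0711) or replicate 3 of dark ZT7.5 (-0.74, 0.051).

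Cacng2, which encodes the AMPA receptor auxiliary subunit stargazin, also fell in dark, with a log2 difference of -0.83 (limma adjusted p = 0.0108), and -0.75 (0.115) without replicate 3 of dark ZT11.5 and -0.785 (0.081) without replicate 1 of dark ZT7.5. In light it differed by -0.27 (0.663). Beside these dark results, markers of the thalamus, a neighbouring region, had mean list levels of 6.62, 6.18, 6.34 and 5.45 at dark ZT11.5, against 5.36, 5.38, 5.37 and 5.53 at dark ZT7.5, over the 6 of 10 markers that could be tested. Their part in the dark results was not tested.

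**Figure D4:**
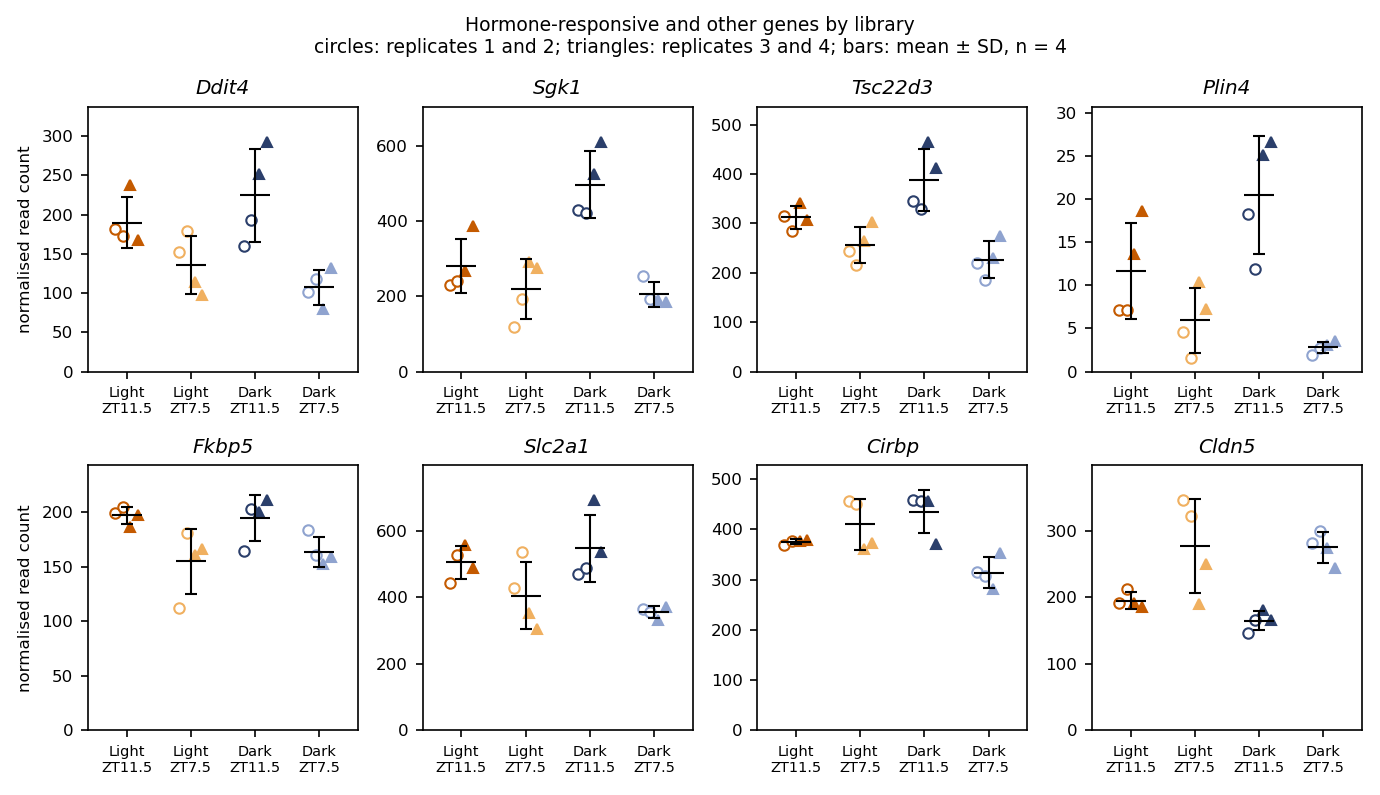
Normalised read counts (y axis, linear, from 0) of 6 genes of the glucocorticoid list and of Cirbp and Cldn5 in each library of Light ZT11.5, Light ZT7.5, Dark ZT11.5 and Dark ZT7.5, with bars for mean ± SD (n = 4). Circles are replicates 1 and 2 and triangles replicates 3 and 4. Every gene drawn except Fkbp5 separates fully between the dark groups and overlaps between the light groups. Cldn5 is lower at Dark ZT11.5 and the others that separate are higher. Over all genes tested in dark, all 4 libraries were higher in 3.6% and lower in 4.05%. For none of the genes drawn did the difference between the arms pass.

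No chaperone or temperature-related gene of the lists passed in light. Of 23 heat shock genes, 17 had a positive log2 difference with a median of 0.11, and 3 (13%) were higher and 0 lower at an unadjusted p under 0.05, against 4.04% and 4.63% of all genes. Besides Chordc1, Cacybp, which encodes the calcyclin-binding protein, read 355, 314, 349 and 355 at light ZT11.5 and 265, 331, 265 and 289 at light ZT7.5 (0.26, limma adjusted p = 0.502). The heat shock element GAANNTTC occurred in 6 of the 18 with a listed promoter (33.3%), against 5.95% of tested genes. These 6 were Hspa1a, Hspa1b, Hspd1, Hspe1, Hspb1 and Fkbp4, and so neither Chordc1 nor Cacybp. Of 18 chaperone genes of the endoplasmic reticulum, 3 (16.7%) were higher and 1 (5.56%) lower at that threshold, and Pdia6, a disulfide isomerase, read 691, 607, 609.8 and 617 at light ZT11.5 and 509, 568, 602 and 541 at light ZT7.5 (0.19, 0.543). The cold-inducible RNA-binding gene Cirbp, whose RNA rises at lower temperature, read 368, 377, 377 and 379 at light ZT11.5 and 457, 451, 361 and 372 at light ZT7.5. The evening libraries were tightly grouped and overlapped the others (-0.12), and the dark difference was 0.47 (0.272).

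Ribosomal protein genes stood slightly lower at ZT11.5 in light. Of 71 tested, 56 had a negative log2 difference, with a median of -0.092 in light and 0.10 in dark. None passed, 8 (11.3%, against 4.63% of all genes) were lower and 0 higher at an unadjusted p under 0.05, and 10 (14.1%) were lower in all 4 libraries, against 3.15% of all genes. Mean list levels overlapped, 10.15, 10.13, 10.04 and 10.04 at light ZT11.5 and 10.27, 10.19, 10.19 and 10.12 at light ZT7.5, whereas summed values, which weight the most abundant members, did not, 154220, 153577, 148792 and 149521 at light ZT11.5 and 165088, 164590, 165670 and 159456 at light ZT7.5. For the difference between the arms, 18 of the 71 had a lower change in light at an unadjusted p under 0.05 (3.48% of all genes) and 0 a higher one, and none passed. Rpl28 read 1378, 1657, 1397 and 1754 at light ZT11.5 and 2174, 1916, 1904 and 2166 at light ZT7.5 (-0.40, limma adjusted p = 0.183), and Rps15a 62.5, 66.1, 54.6 and 52.3 at light ZT11.5 and 77.1, 77.4, 78.0 and 84.1 at light ZT7.5 (-0.43, 0.219). Ribosomal protein genes have near-identical pseudogenes, so their counts are uncertain. The 54 translation factors (median 0.027), 34 proteasome genes (0.013), 56 splicing genes (0.054) and 75 oxidative phosphorylation genes (-0.033) were centred near 0.

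Lipid, synaptic and channel genes gave single candidates. Of 20 cholesterol synthesis genes, 2 (10%) were higher and 2 (10%) lower at an unadjusted p under 0.05, against 4.04% and 4.63% of all genes. Sqle, squalene epoxidase, was higher in all 4 libraries, 131, 121, 133 and 125 at light ZT11.5 and 113, 117, 79.3 and 82.1 at light ZT7.5 (0.40, limma adjusted p = 0.53). Of 53 potassium channel genes, 6 (11.3%) were lower and 0 higher, against 4.63% of all genes lower, with a median of -0.0036. They included Kcnj9 and Kcnk3, a two-pore leak channel, at 89.5, 105, 97.4 and 106 at light ZT11.5 and 158, 108, 149.5 and 114 at light ZT7.5 (-0.39, 0.454). Of 20 synaptic vesicle genes, 1 (5%) was higher and 1 (5%) lower at that threshold, against 4.04% and 4.63% of all genes. Their median was -0.066. Sv2a read 605, 643, 612 and 658 at light ZT11.5 and 793, 700.1, 826 and 852 at light ZT7.5, lower in all 4 (-0.33, 0.219), with a dark difference of -0.26. Syt1 went the other way, with light log2 differences of 0.23 in replicates 1 and 2 and 0.41 in replicates 3 and 4.

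**Figure D5:**
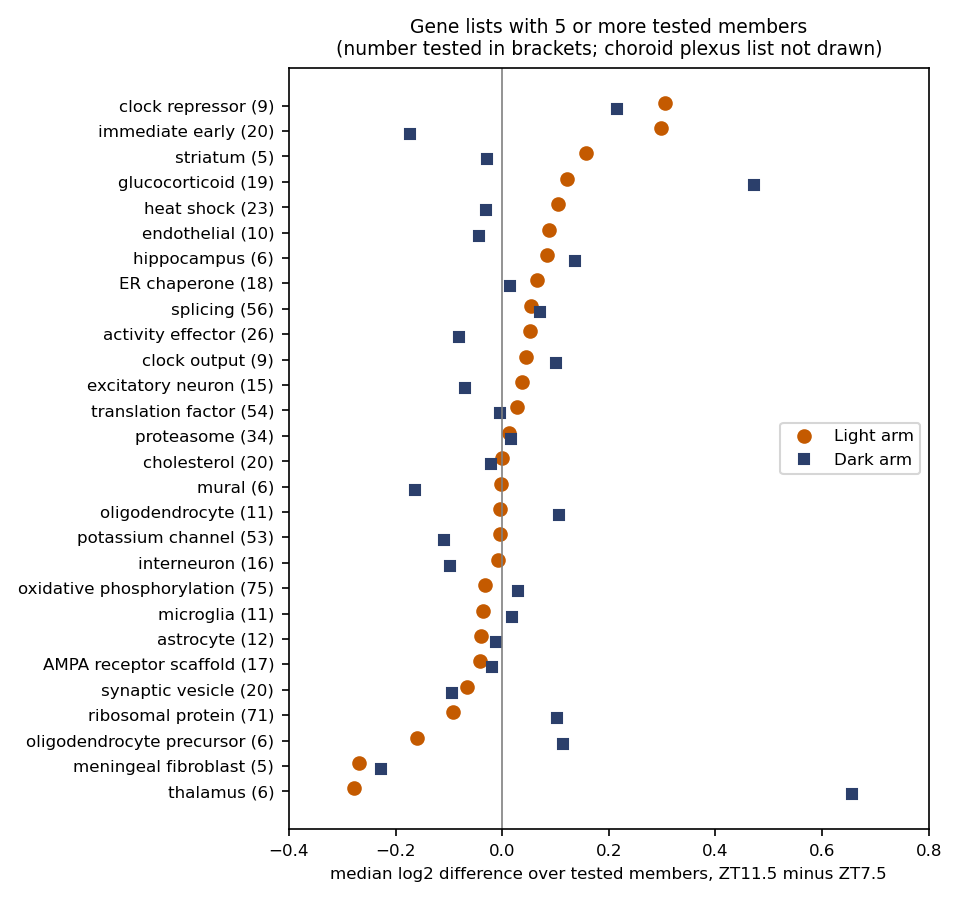
Median log2 difference of ZT11.5 minus ZT7.5 (x axis) over the tested members of each gene list with 5 or more (number in brackets), leaving out the choroid plexus list (1.53 in light), with the light arm as circles and the dark arm as squares. Among the lists drawn, the clock repressor and immediate-early lists are highest in light (0.30 each). The glucocorticoid list stands at 0.47 in dark and 0.12 in light. Points are medians without error bars, and no test of the lists was made.

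Marker lists of cortical cell types had light medians between -0.16 and 0.089. Excitatory neuron (0.037), interneuron (-0.0073), astrocyte (-0.04), oligodendrocyte (-0.0033), microglia (-0.035), endothelial (0.089) and mural (-0.0023) lists lay near 0, and oligodendrocyte precursors lay at -0.16. Olig1, a factor of that lineage, was lower in all 4 libraries, 729, 781, 802 and 704 at light ZT11.5 and 834, 873, 837 and 1002 at light ZT7.5 (-0.23, limma adjusted p = 0.454). In bulk tissue, fewer cells of a type and less RNA per cell cannot be told apart. Slc6a13, a transporter of meningeal fibroblasts, read 15.0, 30.4, 37.3 and 21.1 at light ZT11.5 and 49.9, 45.6, 50.7 and 46.7 at light ZT7.5 (-0.95, 0.219). The 5 tested markers of meningeal fibroblasts had a median of -0.27, 6 of hippocampus 0.084 and 5 of striatum 0.16, and the 17 AMPA receptor and scaffold genes had -0.042.

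Choroid plexus markers were uneven. All 6 members tested, of 10 listed, had positive log2 differences in light, with a median of 1.53, and 5 (83.3%, against 4.04% of all genes) were higher at an unadjusted p under 0.05. Ttr, the transthyretin gene that the choroid plexus makes in quantity, read 8834, 108, 7478 and 1881 at light ZT11.5, against 121, 267, 125 and 543 at light ZT7.5 (3.14, SE 1.39, limma adjusted p = 0.543). Replicate 2 of ZT11.5 was below all ZT7.5 libraries, while replicates 1, 3 and 4 were above them. Mean list levels were 7.18, 4.03, 6.89 and 5.45 at light ZT11.5 and 3.65, 4.28, 3.81 and 4.73 at light ZT7.5, and dark libraries varied as widely. Thalamus markers were 5.18, 5.47, 5.85 and 5.50 at light ZT11.5 and 6.79, 5.80, 5.56 and 5.20 at light ZT7.5, with replicate 1 of ZT7.5 the highest. The part of either tissue in the differences above was not tested.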

How the data were processed

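Per the submitters' processing notes, the tools were cutadapt, STAR 2.5.2b and DESeq2, with the mm10 build. The deposited signal values behave as counts per gene, scaled by a constant for each library. The annotation and the handling of molecular identifiers and strand are not stated by any source at hand, and overlapping genes may share reads. Dividing by the value of 1 read made 100% of values whole within 0.01, which gave the recovered reads and depth. Spreadsheet dates replaced 27 gene names, and these rows were left out. The 10526 genes whose mean over 57 libraries reached 10 were tested with limma 3.58.1 (R 4.3.3) on log2(value + 1), a scale that understates changes of low genes, with 15 groups sharing 1 spread. Tests were two-sided with Benjamini-Hochberg adjustment at 0.05. edgeR 4.0.16 and DESeq2 1.42.0 on recovered reads, other pseudocounts, filters, scalings, replicate terms and left-out libraries were alternatives. Replicate pairs of these groups all differed beyond counting noise (chi-square over its degrees of freedom 2.14 to 4.69). The fit was tested on simulated data. Members and the 34 gene lists were chosen with earlier results of these data known. Genes named are the 10 smallest p in each direction in light (unnamed models and near-identical copies skipped) and list members with a small p or a central role, plus Btg2 and Cyr61, chosen after their values were seen. Gene positions come from GENCODE M21 and promoters from RefSeq, both GRCm38. The TGACG motif and the CArG box were added after the values were seen. The planned motif search among called genes was applied to lists, since no gene was called in light.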

Additional observations from a re-analysis of the deposited data

Results flagged for a closer look

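The change of Egr1 differed between the arms, with a light change that exceeded the dark change by 1.29 on the log2 scale in limma's test of the difference. In 9 of the 240 gene and group combinations checked, 1 library lay far from the other 3 by Dixon's test, which chance gives in about 1 of 20 groups. In light, replicate 1 of ZT11.5 held 691 of Pdia6, against 607 to 617 in the others of its group, and replicate 2 of ZT11.5 held 314 of Cacybp, against 349 to 355. At light ZT7.5, replicate 2 held 30.4 of Morc2a, against 19.5 to 20.4, and replicate 4 held 84.1 of Rps15a, against 77.1 to 78.0. In dark ZT11.5, replicate 3 held 282 of Junb, against 407 to 410.4, and replicate 4 held 370.4 of Cirbp, against 456 to 459. At dark ZT7.5, replicate 4 held 701 of Egr1, against 559 to 575, and replicate 1 held 254 of Sgk1, against 185 to 193, and 7216 of Ttr, against 110.2 to 836. Explanations were not tested.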

How the results depend on the processing

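In light, 0 genes passed in the fit as reported. DESeq2 gave 2, a term for replicates 3 and 4 against 1 and 2 gave 4, values within replicates 1 and 2 gave 4 (Cldn5, Gpr162, Ppfibp2 and Slc6a11), leaving out libraries under 2 M reads gave 2, and leaving out 1 library gave 0 to 2. In dark, where 30 passed, the count was 17 without a filter on low values, 68 in a fit to the compared groups alone, 1 within replicates 1 and 2, 18 after thinning to equal depth (an alternative chosen after seeing the data), and 0 to 31 with 1 library left out, 0 without replicate 3 of ZT11.5, and 2, 18, 5 and 17 without replicates 1, 2, 3 and 4 of ZT7.5. The difference between the arms, passed by 1 gene, gave 0 without the filter, in a fit to the compared groups alone, within replicates 3 and 4 and without libraries under 2 M reads, 4 with DESeq2, 2 within replicates 1 and 2, and 0 to 1 with 1 library left out. The cause of these shifts was not tested. With the replicate number as a block the counts were 4 in light (Egr4, Gpr162, Klf5 and Tmem183a, adjusted p of 0.0463 each), 48 in dark and 1 for the difference. Same-numbered light libraries deviated from their group means with correlations from -0.06 to 0.22, so the numbers were not taken to pair samples. For single genes in light, Npas4 turned to -0.66 within replicates 3 and 4, to -0.11 without libraries under 2 M reads, and lay between -0.11 and 0.55 with 1 library left out, reversed in 3 such fits (-0.0409, -0.0202 and -0.11). Egr3 turned to 0.092 within replicates 1 and 2, to 0.0475 without libraries under 2 M reads, and lay between -0.14 and 0.0475 with 1 library left out, reversed in 2 such fits. Within replicates 3 and 4, Dbp was -0.0546, Arntl 0.0942 and Cirbp 0.0436. Over the genes named, 902 of the other single-gene values kept direction and side of the threshold, 15 gained and 13 lost a call and 7 reversed, and with 1 library left out 638 kept both, 2 gained and 27 lost a call and 5 reversed. At 1.78 to 3.35 M reads in light, small changes of genes near the minimum mean of 10 were not detectable.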
